A study of Mus musculus with 5 samples.

Results

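The cell cycle genes examined here are 33 genes of the cyclin and kinase machinery, DNA replication, mitosis and cell cycle arrest, measured in nuclei sorted as cardiomyocyte nuclei. They were taken by name from a table of 41128 genes, in which 32 were found by symbol and Ccnb1 by its Ensembl identifier. By role they comprised 8 G1 drivers, 9 S phase genes, 12 genes of G2 and mitosis, and 4 genes that hold the cycle back (Rb1 and the inhibitors Cdkn1a, Cdkn1b and Cdkn1c).

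The mice were of the FVB strain and 8 weeks old, with no transgene named in the labels. Every heart, also those that gave the remote samples, had been infarcted by permanent tying of the left anterior descending coronary artery, and was taken on day 7. The border zone group consisted of the libraries of mice 32, 34 and 40, from living muscle beside the infarct. The remote group consisted of the libraries of mice 40 and 43, from muscle away from the infarct, so only mouse 40 gave both regions and no uninjured heart is compared here. Nuclei were sorted by an antibody to PCM-1, a protein of the centrosome found around cardiomyocyte nuclei, and their RNA was amplified from a low input. The p-values measure the spread between libraries of a region and take both libraries of mouse 40 as independent.

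A cell enters the cycle when D-type cyclins with Cdk4 or Cdk6 phosphorylate the retinoblastoma protein Rb1 and so release E2F factors, which switch on genes of DNA replication. Cyclin E with Cdk2 and then cyclin A carry the cell through S phase, and cyclin B with Cdk1 starts mitosis, while p21 (Cdkn1a), p27 (Cdkn1b) and p57 (Cdkn1c) inhibit the kinases. Most cardiomyocytes of the adult mouse have left the cycle, and many carry a pair of nuclei. After injury some copy their DNA again without dividing, so S phase and mitosis genes are read as separate groups.

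Promoters are shown for 4 members that the results below turn on. By limma, the main test, Mki67 and Mcm7 had the smallest p-values among tested members higher and lower in the border zone. Mcm5 is a replication gene that was also lower in every border zone library. Cdk1 is the mitotic kinase, and it was almost absent from all 5 libraries. Each line gives the 250 bases before the RefSeq start of transcription (GRCm38.p6), 5′ to 3′ on the strand of the gene. Capitals mark exact matches, on either strand, to TTTGAA (the cell cycle genes homology region, CHR, bound by a repressor complex in resting cells), to TTTCGCGC or TTTGGCGC (sites of the E2F type) and to CCAAT (the site of the factor NF-Y).

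Mki67: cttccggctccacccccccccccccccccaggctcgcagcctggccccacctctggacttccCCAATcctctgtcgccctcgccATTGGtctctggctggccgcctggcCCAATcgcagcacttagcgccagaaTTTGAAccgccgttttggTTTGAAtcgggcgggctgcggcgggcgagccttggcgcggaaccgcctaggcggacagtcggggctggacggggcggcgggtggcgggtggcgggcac

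Cdk1: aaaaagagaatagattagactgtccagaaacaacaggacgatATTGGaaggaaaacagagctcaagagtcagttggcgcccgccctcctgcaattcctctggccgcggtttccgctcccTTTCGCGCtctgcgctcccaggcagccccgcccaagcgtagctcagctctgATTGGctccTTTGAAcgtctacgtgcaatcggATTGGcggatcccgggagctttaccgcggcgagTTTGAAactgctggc

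Mcm5: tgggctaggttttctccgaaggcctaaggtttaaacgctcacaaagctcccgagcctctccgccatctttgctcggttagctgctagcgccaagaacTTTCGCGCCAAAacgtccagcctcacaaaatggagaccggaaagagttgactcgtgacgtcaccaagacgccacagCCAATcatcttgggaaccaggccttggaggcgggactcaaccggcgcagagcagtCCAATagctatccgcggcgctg

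Mcm7: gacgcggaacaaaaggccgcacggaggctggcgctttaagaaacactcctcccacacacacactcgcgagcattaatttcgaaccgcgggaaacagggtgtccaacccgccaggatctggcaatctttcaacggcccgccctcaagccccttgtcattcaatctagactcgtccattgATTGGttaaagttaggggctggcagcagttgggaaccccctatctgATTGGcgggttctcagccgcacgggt

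The Mki67 window lies at chr7:135716380-135716629 on the minus strand, the Cdk1 window at chr10:69352913-69353162 on the minus strand, and the Mcm5 window at chr8:75109259-75109508 on the plus strand. Mcm7 has more than 1 start in RefSeq, and the window of the outer start is shown, at chr5:138171884-138172133 on the minus strand. Mki67 held CHR letters with their first base at −116 and −98, counted back from the start, and CCAAT letters at −188, −166 and −141. Cdk1 held CHR letters at −71 and −15 and an E2F match at −131. In Mcm5 the E2F matches at −153 and −149 overlap each other, and the capitals run through both. The Mcm7 window held CCAAT letters at −72 and −26 and no match to the other motifs.

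RefSeq windows were matched for 26 of the 33 members, in 29 windows, and were set beside all 32851 promoter windows of the same length from 27025 genes. CCAAT letters were found in 72.4% of the members' windows and in 33.8% of all windows. They were in 9 of 9 S phase windows and 9 of 10 windows of G2 and mitosis genes, but in 2 of 7 windows of G1 drivers. CHR letters were found in 20.7% of the members' windows and 15.99% of all windows, with 4 of the 6 member windows in the G2 and mitosis group. E2F letters were found in 10.3% of the members' windows, those of Cdk1, Mcm5 and Mcm6, and in 0.654% of all windows. The members' windows were also richer in CpG, with a median of 19 CpG against 6 and a GC content of 62.4% against 52.4%. A match is a description of letters, and none was tested for binding in these nuclei.

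Values below are the deposited read numbers of each gene after scaling by the size factor of its library, called normalized values. Recovered depth was 18725791 to 25014205 reads in the border zone and 11324539 and 13440421 in the remote group. The deepest library, border zone mouse 32, had a read in the fewest genes (17567), against 19725 and 20634 in the other border zone libraries and 23033 and 22386 in remote mice 40 and 43. The 8 cardiomyocyte markers, among them Myh6, Ttn and Ryr2, were all present in every library at a sum of 126069 to 165890 RPM (reads scaled to the same total in each library). Fibroblast markers summed to 118 to 272 RPM, mural markers to 58.8 to 636, and endothelial, macrophage and lymphocyte markers to less than 49 each. In bulk RNA of this kind, fewer cells of a type and less RNA per cell cannot be told apart.

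Most cell cycle genes were present at low levels or hardly at all. Only 15 of the 33 members had a read in every library, and 9 had at least 10 reads in every library. Of the 33 members, 11 had a mean normalized value under 10 and are too scarce to judge. Of the 22 tested members, 10 were thin, meaning fewer than 10 reads in at least 2 libraries. A value of 0 allows up to 3 reads by counting error alone, which is 2.19 to 4.75 normalized units depending on the library. Border zone mouse 32 had no read for 12 members, against 4, 7, 3 and 5 in border zone mice 34 and 40 and remote mice 40 and 43.

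Per length of transcript, the median levels of the groups that drive or block G1 were above those of S phase and mitosis. Cdk4, the main partner of the D cyclins, was the highest member at 85.6 normalized units per kilobase over the 5 libraries, at percentile 84.1 of 27169 genes. Next on this per-kilobase scale came Rb1 (68.4), Cdkn1b (32.8), Ccnd2 (24.2), Cdc45 (24.0, mainly from a single library), Mcm7 (22.5), Ccnd1 (17.9) and Mki67 (16.7). Each of these neighbours differed by less than the spread between border zone libraries of at least 1 of the pair, as for Cdk4 at 63.1 ± 52.4 and Rb1 at 74.1 ± 49.3 per kilobase there (SD, n = 3). The median level per kilobase was 12.2 for the G1 drivers and 23.1 for the inhibitors and Rb1, against 4.53 for the S phase genes and 3.94 for those of G2 and mitosis. Cdk1 was at 0.656 and Ccnb1 at 0.370 per kilobase, so the kinase and cyclin of mitotic entry were both near the bottom of the order. Pseudogenes are annotated for Ccnb1 (Ccnb1-ps), Ccnb2 (Ccnb2-ps) and Pcna (Pcna-ps1 and Pcna-ps2), and their effect on the read numbers was not tested.

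**Figure D1:**
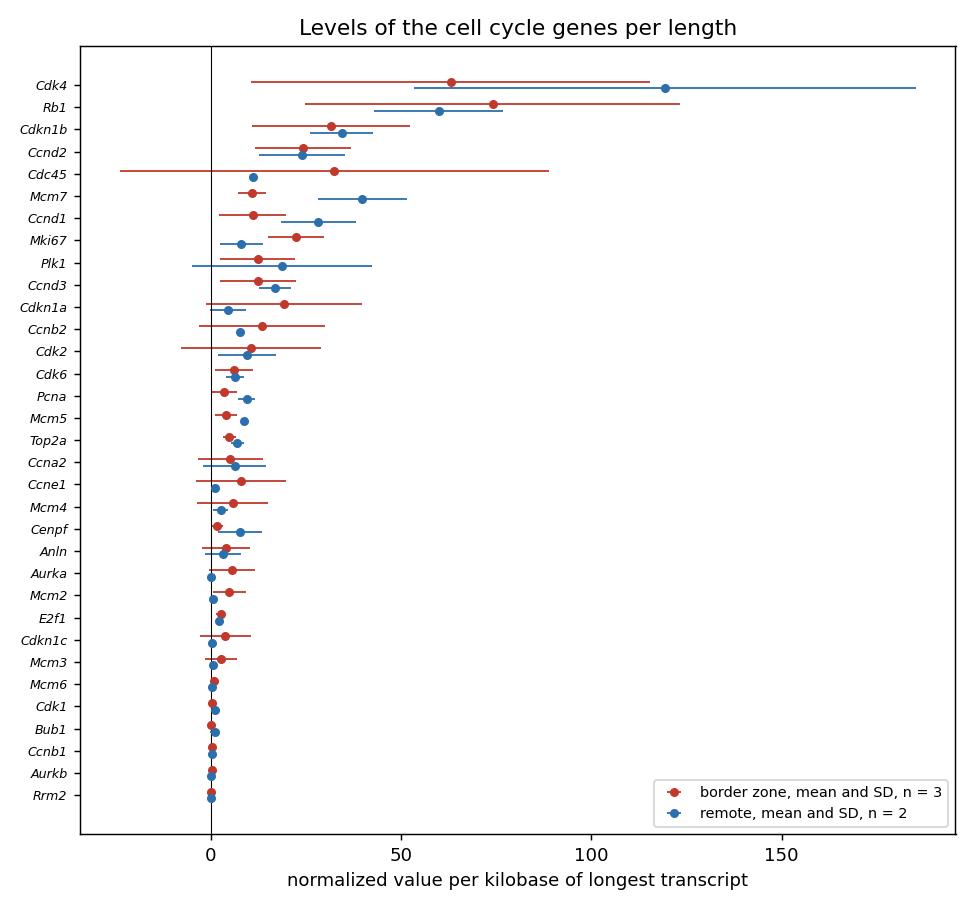
Normalized value per kilobase of the longest transcript for each of the 33 members, ordered by the mean over 5 libraries. Points are group means and bars are SD (border zone n = 3, remote n = 2), with Cdk4 and Rb1 highest and bars that reach below 0 where a single library holds most of the signal, as for Cdc45.

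By limma on log2(value + 1), 0 of the 22 tested members passed an adjusted p of 0.05, nor did any of the 14989 tested genes (0%). At an unadjusted p under 0.05 limma gave 1 member higher in the border zone (Mki67), against 10.2% of all tested genes, and 0 members lower, against 7.87%. edgeR and DESeq2 on the recovered reads also called 0 members. At an unadjusted p under 0.05, edgeR gave 0 members higher and 0 lower, against 9.45% and 6.52% of all genes it tested. At the same unadjusted p, DESeq2 gave 1 member higher (Aurka), against 7.61% of all genes, and 2 lower (Mcm7 and Cenpf), against 5.91%. In the authors' deposited table, 0 of the 25 members with an adjusted p were higher and 0 were lower at 0.05, against 3.46% and 1.98% of 16592 genes. The smallest adjusted p of a member in the authors' deposited table was 0.132, for Mcm7.

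Groups of libraries did not overlap for 5 of the 22 tested members. A single member, Mki67, was higher in every border zone library than in both remote libraries, against 18.9% of all tested genes. The members Ccnd1, Mcm5, Mcm7 and Cenpf were lower in every border zone library, against 20.3% of all tested genes. Both shares of the members, 1 and 4 of 22, were under the share of all tested genes. The median log2 change, border zone over remote, was −0.54 for the 22 members and −0.21 for all tested genes, with 6 members above 0 and 16 below.

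**Figure D2:**
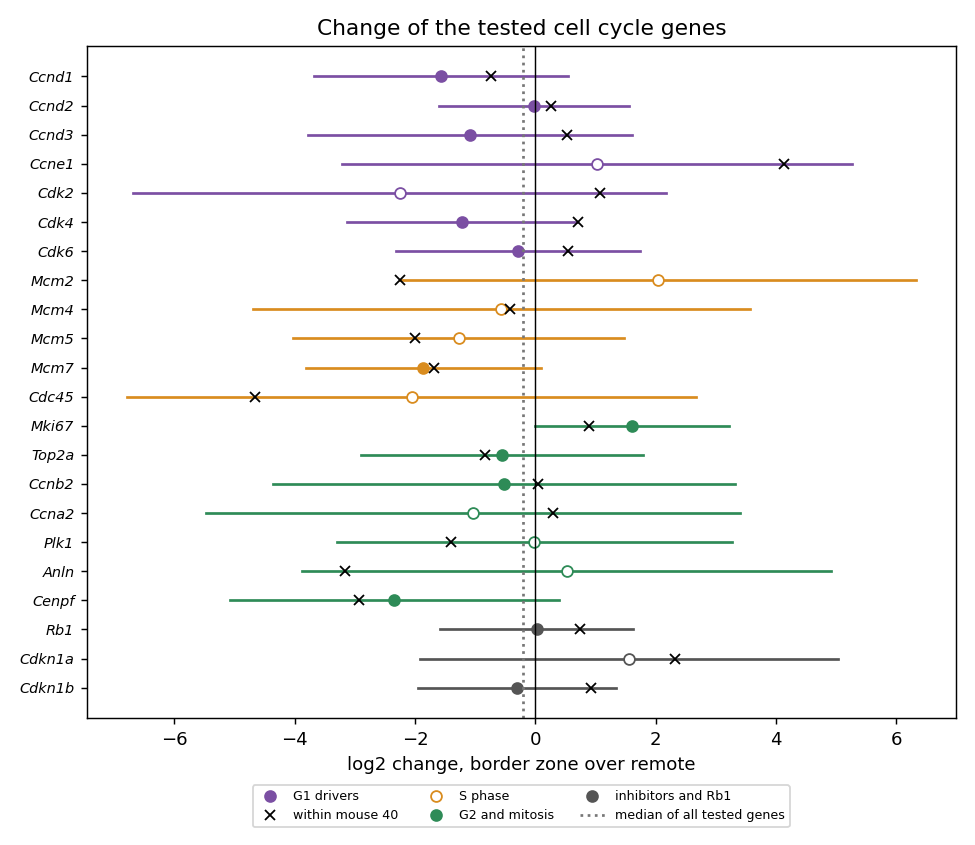
Log2 change, border zone over remote, of the 22 tested members on the log2(value + 1) scale, with 95% confidence intervals from limma. Filled circles are members with at least 10 reads in 4 or more libraries, open circles are thin members, crosses are the difference within mouse 40 and the dotted line is the median of all tested genes (−0.21); all intervals but that of Mki67, whose lower end is at 0, span 0.

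Among G1 drivers, none of the 7 tested members passed the test, and the median log2 change was −1.09 with 1 above 0 and 6 below. Ccnd1, the cyclin D1 that links growth signals to Cdk4, was at 19.0, 25.8 and 79.0 normalized units in border zone mice 32, 34 and 40 and at 132 and 79.7 in remote mice 40 and 43. The groups did not overlap, but the highest border zone and the lowest remote library nearly met. By limma the log2 change of Ccnd1 was −1.56 ± 0.97 (SE; adjusted p = 0.404). An exon of Ccnd1 overlaps an exon of the opposite-strand gene Oraov1, and whether reads were counted by strand is not given in the sources used here.

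Over the 5 libraries Ccnd2 had the highest level per length of the D cyclins. In the remote group Ccnd1 was above it (28.3 against 24.0 per kilobase). Ccnd2 was at 91.9, 126 and 244 in border zone mice 32, 34 and 40 and at 203 and 101 in remote mice 40 and 43. The groups overlapped fully, and the means were 154 ± 79.9 (SD, n = 3) and 152 ± 72.3 (SD, n = 2). By limma the log2 change of Ccnd2 was −0.02, with a 95% interval of −1.60 to 1.56, so changes within that interval were not excluded. Ccnd3, the third D cyclin, was at 4.75, 62.8 and 77.5 in the border zone and at 53.6 and 76.7 in the remote group. Its low value came from border zone mouse 32, with 3 reads, while the other border zone libraries lay within or just above the remote range. Ccnd3 exons overlap those of Bysl on the other strand, and a pseudogene Ccnd3-ps is annotated.

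Cdk4 was at 33.3, 109.5 and 246 in border zone mice 32, 34 and 40 and at 149 and 341 in remote mice 40 and 43. The groups overlapped, with border zone mouse 32 lowest, and the log2 change was −1.21 ± 0.88 (SE; limma adjusted p = 0.473). Its exons overlap those of Tspan31 on the other strand, which was at 0 to 15.6 in the border zone and 27.9 and 33.6 in the remote group. Cdk6, the other kinase partner of D cyclins, ranged from 31.7 to 138 in the border zone and from 54.8 to 94.4 in the remote group. Cdk2, the kinase of cyclin E, had no read in border zone mice 32 and 34 but 99 reads (77.5 normalized) in border zone mouse 40, and 36.2 and 10.2 normalized units in the remote group. It is named here because, chosen after its values were seen, DESeq2 without border zone mouse 40 called it lower (log2 −6.51, adjusted p = 0.0433), as it did 7.67% of all genes. It was the only member called under any setting tried. Ccne1, cyclin E1, was likewise highest in border zone mouse 40, at 43.0, and at or under 4.92 in the other 4 libraries. E2f1, an E2F factor and target of Rb1, had 5 to 10 reads per library and was too scarce to judge.

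In all these G1 drivers but E2f1, border zone mouse 40 held the highest value of its group. The summed G1 drivers were at 192, 380.2 and 909 normalized units in border zone mice 32, 34 and 40 and at 678 and 671 in the remote libraries. Within mouse 40, where both regions came from the same heart, 6 of the 7 tested G1 drivers were higher in the border zone library, and Ccnd1 was lower (log2 −0.73). The median difference of the G1 drivers within mouse 40 was 0.54, against 0.02 for all tested genes, of which 7586 were higher and 7345 lower. With 1 library a region this has no test. Without border zone mouse 32 the limma median of the G1 drivers, minus that of all tested genes, was 0.21 in place of −0.88, so the sign of the group's median rested on that library.

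**Figure D3:**
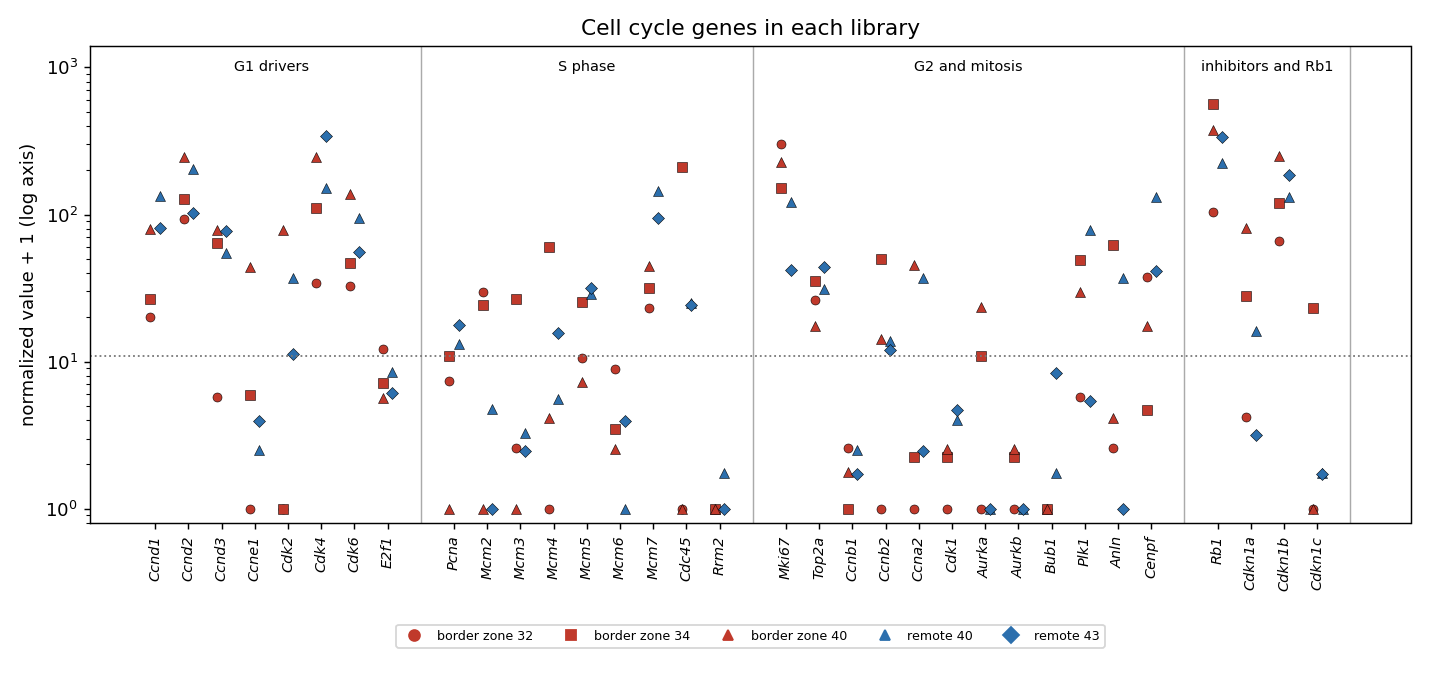
Normalized value + 1 of each member in each of the 5 libraries on a log axis, by role, with 1 symbol a mouse, border zone in red and remote in blue, and the dotted line at the minimum mean of 10 for a test. The libraries of the border zone lie as far apart as the groups for most members, while Mki67 lies above both remote libraries in all 3 and Mcm7 below.

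Among the inhibitors and Rb1, none of the 3 tested members passed, and the median log2 change was 0.03. Rb1, the gatekeeper that binds E2F factors, was at 103, 559.9 and 372 in border zone mice 32, 34 and 40 and at 223 and 335 in remote mice 40 and 43. The remote range lay inside that of the border zone, and the log2 change was 0.03, with a limma 95% interval of −1.58 to 1.63. Exons of Rb1 overlap those of Rcbtb2 and Lpar6 on the other strand, by up to 383 and 209 bases. Cdkn1b, which encodes p27, was at 65.0, 119 and 249 in the border zone and at 129.8 and 183 in the remote group, again with overlap (log2 −0.31 ± 0.75 SE). Cdkn1a, which encodes p21 and is a target of p53, was at 3.17, 27.1 and 79.8 in the border zone and at 15.1 and 2.19 in the remote group. Its values differed by more within each region than between the regions, and it was thin (log2 1.56 ± 1.59 SE, limma adjusted p = 0.617). Cdkn1c, which encodes p57, had 18 reads in border zone mouse 34, none in the other border zone libraries and 1 in each remote library, too few to judge. Within mouse 40 the 3 tested members were all higher in the border zone library, with a median difference of 0.93.

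Among S phase genes, 5 of 9 could be tested, none passed, and 4 of the 5 were below 0 (median log2 change −1.28). All of the tested S phase genes but Mcm7 were thin. Mcm7, a subunit of the MCM helicase that opens DNA at replication origins, was at 22.2, 30.8 and 43.8 in border zone mice 32, 34 and 40 and at 143 and 93.6 in remote mice 40 and 43. Every border zone library was under both remote libraries, with means of 32.3 ± 10.9 (SD, n = 3) and 118 ± 34.7 (SD, n = 2). The log2 change was −1.86 ± 0.90 (SE), which limma did not call (adjusted p = 0.297), and the difference within mouse 40 was −1.68.

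An exon of Mcm7 overlaps one of the opposite-strand gene Cops6 by 64 bases. Cops6, a subunit of the COP9 signalosome, was at 6.34, 0 and 14.1 in the border zone and at 95.1 and 55.5 in the remote group, and its part in the Mcm7 values was not tested. A longer shared exon, of 247 bases, is with Ap4m1, which was at 57.1 to 580.1 in the border zone and 131 and 147 in the remote group, with overlap. The microRNAs Mir25 and Mir93 lie within Mcm7 on the same strand. Macrophage markers, summed, moved in the same direction as Mcm7, at 146 to 158 normalized units in the border zone against 249 and 348 in the remote group. Of their 7 measured genes, Mrc1 and C1qc were called lower in the authors' deposited table, against 1.98% of all genes, and the defining marker C1qa was at 0 in border zone mice 32 and 34. Ptprc and Cd68 overlapped between the groups, as did C1qb, which was at 76.1 in border zone mouse 32. Mural markers, summed, were at 1523 to 2428 against 2614 and 5264, but this sum was mostly Abcc9, which cardiomyocytes also express. Without Abcc9 the mural sum was at 387 to 876 in the border zone and 288 and 364 in the remote group, the opposite direction. The mural genes did not move together, with 3 of the 5 tested above 0 by log2 change and 2 below. Rgs5 was lower in every border zone library (log2 −4.09), while Pdgfrb was higher in every one (log2 1.16). The part of either list in the Mcm7 values was not tested.

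Mcm5, another subunit of the helicase, was at 9.51, 24.6 and 6.26 in border zone mice 32, 34 and 40 and at 27.9 and 30.7 in remote mice 40 and 43. The border zone libraries were all lower, on 6 to 20 reads each (log2 −1.28 ± 1.26 SE, limma adjusted p = 0.605). Mcm2 and Mcm4 were uneven between libraries of the same region. Mcm2 was at 28.5 and 23.4 in border zone mice 32 and 34 and at 0 in border zone mouse 40 and remote mouse 43. Mcm4 was at 59.1 in border zone mouse 34 and at 0 to 14.6 in the other 4 libraries. Cdc45, which joins the MCM ring to form the active helicase, was at 209 in border zone mouse 34, at 0 in border zone mice 32 and 40, and at 24.2 and 23.4 in the remote group. Its mean therefore came mainly from a single library with 170 reads, and the sign of its change depended on the model (log2 −2.06 by limma and 1.49 by edgeR). An exon of Cdc45 overlaps one of the opposite-strand gene Ufd1 by 164 bases.

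Pcna, the sliding clamp of DNA polymerase, had at most 23 reads in a library and was at 0 in border zone mouse 40. Its values of 6.34, 9.84 and 0 in the border zone and 12.1 and 16.8 in the remote group did not overlap, but its mean was under the minimum for a test. Mcm3 and Mcm6 had 27 and 13 reads over all libraries, and Rrm2, the S phase subunit of ribonucleotide reductase, had 1 read in total. Summed over the 9 genes, the S phase group was at 76.1, 385 and 54.8 in border zone mice 32, 34 and 40 and at 218 and 183 in the remote libraries. Mouse 34 alone stood above the remote range, and Cdc45 gave more than any other gene to the sum in mouse 34. In RPM the S phase sums were 1.92, 14.9 and 3.74 against 21.5 and 22.2, so mouse 34 was then below both remote libraries. Within mouse 40 all 5 tested S phase genes were lower in the border zone library, with a median difference of −1.99. All but Mcm7 rested on few reads there. Mcm2 and Cdc45 had 0 reads in that library, Mcm4 had 4 and Mcm5 had 8, against 5, 32, 6 and 37 in remote mouse 40.

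Among the 12 genes of G2 and mitosis, 7 could be tested, none passed, and 2 were above 0 and 5 below (median log2 change −0.52). Mki67, which encodes the Ki-67 protein that coats mitotic chromosomes and is used as a label of cycling cells, was at 299.5, 151 and 226 in border zone mice 32, 34 and 40. Its remote values were 122 in mouse 40 and 40.9 in mouse 43. All border zone libraries were above both remote libraries, with means of 226 ± 74.1 (SD, n = 3) and 81.2 ± 57 (SD, n = 2). The log2 change was 1.61 ± 0.74 (SE), with a limma 95% interval of 0.00 to 3.21 and an adjusted p of 0.276. The size of the change rested on the remote libraries, with a log2 change of 0.83 without remote mouse 43 (limma adjusted p = 0.973) and 2.38 without remote mouse 40 (limma adjusted p = 0.471). Within mouse 40 the difference was 0.89.

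The non-overlap of Mki67 depended on the size factors. In RPM it was at 7.56, 5.85 and 15.4 in border zone mice 32, 34 and 40 and at 12.0 and 4.95 in the remote group, so the groups overlapped. On that scale the log2 change of Mki67 was 0.19 (limma adjusted p = 0.888), while the median of all tested genes was −1.58, a shift of −1.37 from the main scaling. Relative to the median of all tested genes, Mki67 was at 1.82 under the main scaling and 1.77 on that scale. The scalings differ by a constant factor for each library, so this likeness was given in advance and is no separate support. Fibroblast markers, summed, were higher in the border zone as Mki67 was, at 3386 to 5142 normalized units against 1975 and 2761. That separation rested on Col1a1, without which the sum was at 1591 to 2808 in the border zone and 1443 and 1862 in the remote group, with overlap. Of the 8 markers 6 were above 0 by log2 change, while Dcn was lower in every border zone library (log2 −2.04) and Lum was at −1.94. Neither limma nor the authors' deposited table called any of the 8, and their part in the Mki67 values was not tested. Summed lymphocyte markers were at 26.6 to 277 in the border zone and 14.6 and 27.2 in the remote group. The authors' deposited table called the T cell gene Cd3d higher, at log2 4.80 and adjusted p = 0.0273, though it overlapped between the groups, and Cd3e was higher in every border zone library. The part of these genes in the Mki67 values was not tested either.

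No other tested gene of the mitosis group was higher in every border zone library. Cenpf, a kinetochore protein made in G2, was at 36.5, 3.69 and 16.4 in border zone mice 32, 34 and 40 and at 131 and 40.2 in remote mice 40 and 43. It was lower in every border zone library (log2 −2.35 ± 1.25 SE, limma adjusted p = 0.339), with a difference of −2.92 within mouse 40. Its log2 change was −1.53 without border zone mouse 34 and −1.504 without remote mouse 40. Top2a, the topoisomerase that untangles replicated chromosomes, was at 16.4 to 34.5 in the border zone and at 30.2 and 43.1 in the remote group, with overlap (log2 −0.55). Plk1, a mitotic kinase, ranged from 4.75 to 48.0 in the border zone and was at 77.8 and 4.39 in remote mice 40 and 43. Ccna2, cyclin A2, was at 44.6 and 36.2 in the border zone and remote libraries of mouse 40 and at or under 1.46 in the other 3 libraries. Exons of Ccna2 overlap those of Exosc9, which was at 2.35 to 4.75 in the border zone and 58.9 and 26.3 in the remote group. Anln, the anillin of the cleavage furrow, was at 61.5 in border zone mouse 34 and 36.2 in remote mouse 40, and at or under 3.13 elsewhere. Ccnb2, cyclin B2, was at 49.2 in border zone mouse 34, at 0 in border zone mouse 32, and at 10.96 to 13.3 in the other libraries.

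The remaining genes of mitosis were too scarce to judge. Cdk1 had 0, 1 and 2 reads in border zone mice 32, 34 and 40 and 4 and 5 in remote mice 40 and 43, and Ccnb1 had 5 reads in all. Aurka, a spindle kinase, had 8 and 29 reads in border zone mice 34 and 40 and none in border zone mouse 32 or in the remote libraries. In the authors' deposited table its adjusted p was 0.159. Aurkb, the kinase of the chromosomal passenger complex, had 3 reads over all libraries, and Bub1, a spindle checkpoint kinase, had 11, of which 10 were in remote mouse 43. Cdk1 and Ccnb1 thus had no more than 5 reads in any library, and Mki67 had 56 to 289.

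Summed over the 12 genes, the G2 and mitosis group was at 369, 362 and 376 in border zone mice 32, 34 and 40 and at 451 and 153 in remote mice 40 and 43. Most of the border zone sum in mice 32 and 40 was Mki67. Without Mki67 the sums were 69.7, 210.4 and 149 in the border zone and 329.9 and 112 in the remote group, with overlap. All 33 members together summed to 808, 1856 and 2040 in the border zone and to 1716 and 1528 in the remote libraries. In RPM these sums were 20.4, 71.7 and 139 in the border zone and 169 and 185 in the remote libraries, without overlap.

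**Figure D4:**
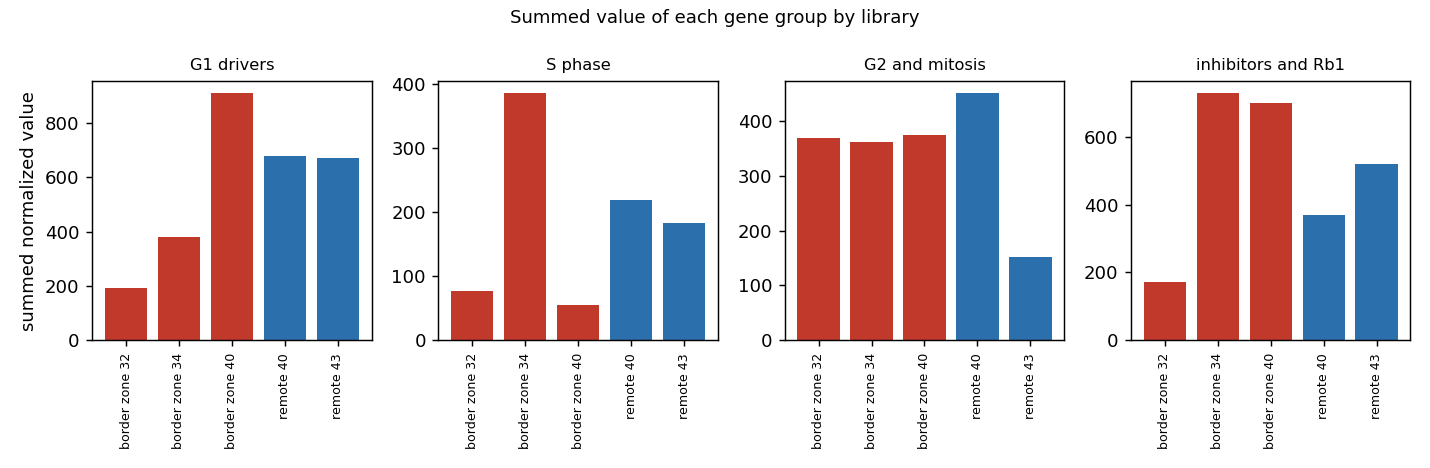
Summed normalized value of each role group in each of the 5 libraries, as bars from 0. The G1 drivers sum to 192 in border zone mouse 32 and 909 in border zone mouse 40, the S phase genes peak at 385 in border zone mouse 34, and the G2 and mitosis genes sum to 362 to 376 in all border zone libraries, of which Mki67 gives 151 to 299.5.

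Spread within the border zone exceeded the change between regions for nearly all members. The range among the border zone libraries was larger than the size of the log2 change in 20 of the 22 tested members (90.9%), against 74.2% of all tested genes, and the exceptions were Mki67 and Mcm7. The median range among the border zone libraries was 3.04 log2 units for the members and 1.92 for all tested genes. Of the 22 tested members, 6 were at 0 in border zone mouse 32 (27.3%), against 9.10% of all tested genes there. The genes compared were not matched for level, and 10 of the tested members were thin. A trait of cell cycle genes therefore cannot be told apart from their low read numbers here. The median half-width of the 95% interval was 2.74 log2 units for the members and 2.11 for all tested genes, so only large changes of single members were detectable.

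Further genes of the cell cycle were read from 4 lists by role, and few were called. Of 25 G1 and S regulators found, 20 were tested and limma called 0, with 10 above 0 and 10 below. In the authors' deposited table, 0 of 22 were higher and 0 lower. Their most abundant genes were Tfdp2, a partner of E2F factors, at 304, 149 and 642 in the border zone and 1297 and 822 in the remote group, and E2f4, the repressive E2F of resting cells, at 447, 1224 and 189 against 155 and 252. Tfdp2 was lower in every border zone library, with an adjusted p of 0.214 in the authors' deposited table, and E2f4 overlapped.

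Of 40 replication genes, 27 were tested, limma called 0, and 13 were above 0 and 14 below. The authors' deposited table called 1 of 28 higher and 0 lower, near the 3.46% and 1.98% of all genes. The gene called was Dnmt1, which copies DNA methylation onto new strands, with log2 2.68 and adjusted p = 0.0163 in the authors' deposited table. Dnmt1 was at 1388, 1165 and 465 in border zone mice 32, 34 and 40 and at 229 and 84.8 in the remote libraries, without overlap (limma adjusted p = 0.14).

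Of 45 further genes of G2 and mitosis found, 29 were tested, limma called 0, and 15 were above 0 and 14 below. The authors' deposited table called 1 of 33 higher and 1 lower, also near the 3.46% and 1.98% of all genes. Incenp, the scaffold of the chromosomal passenger complex that holds Aurkb, was at 193, 380.2 and 66.5 in the border zone and at 11.3 and 11.7 in the remote group. Its log2 change was 4.21 with adjusted p = 0.000752 in the authors' deposited table (limma adjusted p = 0.14). Nusap1, a spindle protein, was at 1.58, 3.69 and 0 in the border zone and at 30.2 and 51.2 in the remote group (log2 −4.61 and adjusted p = 0.0449 in the authors' deposited table). Of 21 inhibitors and p53 targets, 16 were tested, 9 were above 0 and 7 below, and neither limma nor the authors' deposited table called any. The most abundant were Meis2, a homeobox factor whose relative Meis1 holds mouse cardiomyocytes out of the cycle, and Tob1, an antiproliferative protein. Meis2 was at 2152 to 3022 in the border zone and 1843 and 2210.3 in the remote group, and Tob1 at 1705 to 2625 against 1399 and 1522.5.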

How the data were processed

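Nuclear RNA was sequenced from 3 border zone and 2 remote libraries. The deposited per-library table holds a signal made by the authors, read numbers of each gene over a library size factor (0.631 to 1.37). STAR, DESeq2 and mm10 are named in the submitters' processing notes, without versions. Neither the counter nor the gene models are given in the sources used here. All values above 0 were whole multiples of the value of 1 read, within 0.01, so reads were recovered. The authors' deposited table of log2 fold changes, p-values and adjusted p-values is quoted as the authors' own.

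The test was limma 3.58.1 (R 4.3.3), two-sided, on log2(value + 1) with a trend of variance on mean, group being the only term, for genes with a mean of at least 10. P-values were Benjamini-Hochberg adjusted over all 14989. edgeR 4.0.16 (quasi-likelihood) and DESeq2 1.42.0 on the recovered reads were alternatives, with other pseudocounts (0.5 and 5), minimum means (none and 50), total-count and quantile scaling, and left-out libraries. DESeq2 without each library was added after seeing the data.

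The members and lists were chosen with earlier results of these data known. Values in every library are given for members passing a test, with groups that do not overlap, among the 2 highest of their role group, or being a D cyclin, a Cip/Kip inhibitor or Mki67. From the wider lists, up to 3 passing genes, or the 2 most abundant, are named. Exons and lengths came from GENCODE M21 (GRCm38) and the authors' length table. The fit was run on simulated counts with an even spread, in which only well covered genes were changed, as a check of the code. That check does not measure how well changes of scarce or uneven members would be found. The floor given for a gene without reads covers counting error only. The limma intervals, like the p-values, measure the spread between libraries of a region. The value of 1 marker gene is not reported here.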

Additional observations from a re-analysis of the deposited data

How the results depend on the processing

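No member passed the threshold in limma or edgeR under any setting, nor in DESeq2 on all libraries. DESeq2 without border zone mouse 40 called 1 member (Cdk2) and 2801 genes in all. With any other library left out, it called 0 members. Among all tested genes, limma called 0, with 1 under total-count scaling, 1 under quantile normalization and 0 to 235 with each library left out in turn (235 without border zone mouse 40). DESeq2, run without a minimum mean on 27508 genes, called 902, of which 574 were higher and 328 lower. Of the genes tested by limma it called 894. Each role group median is stated relative to that of all tested genes. The main value was −0.88 for G1 drivers, −1.07 for S phase, −0.31 for G2 and mitosis and 0.24 for inhibitors and Rb1. The G1 median was −0.11 by edgeR and −0.11 by DESeq2, 0.74 in mice 40 and 43 alone and 0.52 in mouse 40 alone. The S phase median was 1.07 by edgeR and 1.05 by DESeq2, so its sign depended on the model. The G2 and mitosis median was 1.54 with a mean of at least 50, where Mki67 alone is left, 0.10 under total-count scaling and 0.84 under quantile normalization, and that of the inhibitors was −0.055 under quantile normalization and −0.21 with a mean of at least 50. With each library left out in turn, the G1 median ran from −1.502 to 0.21 (0.21 without border zone mouse 32), and that of G2 and mitosis from −1.76 (without remote mouse 43) to 1.14 (without remote mouse 40). That of S phase ran from −1.69 to −0.51, and that of the inhibitors from −0.11 (without border zone mouse 34) to 0.83 (without border zone mouse 32), and was −0.048 without remote mouse 40.

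Of 296 values of single members under the fitted alternatives, 57 had the opposite sign, in 16 of the 22 members, and 0 passed the threshold. Within mouse 40 alone, where there is no test, 10 of 22 had the opposite sign. Values are minus the median of all tested genes. With a pseudocount of 5 these were Mcm4 at 0.15 and Ccnb2 at 0.15. With no filter they were Cdk6 at 0.084 and Cdkn1b at 0.071, and with a mean of at least 50 Ccnd2 at −0.087 and Rb1 at −0.041. Under total-count scaling they were Mcm4 at 0.072 and Ccnb2 at 0.10. Under quantile normalization they were Cdk6 at 0.10, Mcm4 at 0.97, Top2a at 0.065, Ccnb2 at 0.85, Ccna2 at 0.026 and Rb1 at −0.055. By edgeR they were Ccnd2 at −0.042, Cdk2 at 0.12, Mcm4 at 1.07, Cdc45 at 1.502, Ccnb2 at 0.76 and Plk1 at −0.65. By DESeq2 they were Ccnd2 at −0.041, Cdk2 at 0.10, Mcm4 at 1.05, Cdc45 at 1.49, Ccnb2 at 0.75 and Plk1 at −0.65. In mice 40 and 43 alone they were Ccnd3 at 0.25, Cdk2 at 1.92, Cdk4 at 0.10, Cdk6 at 0.91, Mcm2 at −1.15, Ccnb2 at 0.13, Ccna2 at 2.23, Anln at −0.58 and Cdkn1b at 0.66. With each library left out in turn, values ran from −1.502 to 0.21 for Ccnd3, −0.64 to 0.31 for Cdk6, −2.03 to 0.86 for Mcm4, −1.60 to 1.15 for Ccnb2, −2.80 to 1.14 for Ccna2, −0.54 to 0.25 for Cdkn1b, −1.76 to 2.14 for Plk1, −1.90 to 3.35 for Anln, −0.31 to 0.83 for Rb1, −0.32 to 0.70 for Ccnd2 and −0.10 to 2.46 for Ccne1. The cause of these differences was not tested. Where a lone library was left in the remote group, it was assumed to vary like the border zone libraries.

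No paired analysis was possible because only mouse 40 gave libraries of both regions. Depth limits the scarce members, of which the best covered had 51 reads over all 5 libraries.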
